A study of Mus musculus with 16 samples.

Results

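Hmga2, Hmga1, Igf2bp2 and Igf2bp3, 4 of the 27998 genes counted, were followed in single cells of lineage-depleted mouse bone marrow. Hmga2 and Hmga1 encode architectural DNA-binding proteins that bend AT-rich DNA. Igf2bp2 and Igf2bp3 encode RNA-binding proteins that hold and stabilise messenger RNAs. They are abundant in the fetus, decline after birth and are known for their return in tumours, and hence are called oncofetal. In blood, LIN28B represses the let-7 microRNAs in fetal stem cells, and HMGA2 and the IGF2BP proteins are textbook let-7 targets that rise when let-7 is low.

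The members were chosen on the difference between Tet2-KO and WT mice in these same data, so their genotype values below are a description and carry no test. The response to IL-1β within each genotype was not the basis of that choice and was tested. These tests reuse the same mice, so they are not independent of the choice. A gene picked for high values in Tet2-KO vehicle mice would lean towards a fall with IL-1β in Tet2-KO mice. The genotypes were compared with each treatment, so the WT tests are not free of the choice either. A gene picked for low values in WT IL-1β mice would lean towards a fall in WT mice. Picks for high Tet2-KO IL-1β or low WT vehicle values would lean the other way. Whether loss of the DNA demethylase Tet2 and a chronic inflammatory signal change marrow progenitors was the question behind the design.

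The study used 16 C57BL/6 mice aged 6 to 12 weeks, with 4 in each group. WT mice carried Tet2fl/fl without Cre, and Tet2-KO mice were Vav-Cre-Tet2-/-, in which Cre is active in all blood cells. An effect of the Cre transgene cannot be told apart from that of Tet2 loss. Mice of each genotype received vehicle or 500 ng of IL-1β daily into the peritoneum for 5 weeks. Each of the 8 libraries pooled 2 mice of one group (mice 1 and 2, or 3 and 4), and antibody hashtags told them apart. Of 94917 cells kept, 57896 were given to 1 mouse, and 33083 carried no clear hashtag. Libraries held 8569 to 14573 cells, and 1061 barcodes occurred in more than 1 library. Tet2 itself was read at 31.0 to 46.9 CPM (UMIs per 1000000 UMIs of the mouse's cells in a gate) in WT vehicle mice and 36.4 to 46.2 CPM in Tet2-KO vehicle mice, over all cells given to a mouse. Where the 3′ tags lie relative to the deleted part was not examined here, so these levels do not check the genotype.

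Cells were placed in 16 gates by UMIs of marker genes. The HSC-like gate (728 cells) was led by Mecom, Hlf, Gcnt2 and Procr, and the Flt3+ Cd34+ progenitor gate (1593 cells) by Flt3, Dntt and Cd34. The Mpo+ Cd34+ gate (1341 cells) was led by Cd34, Sox4, Ctla2a and Spns2. Mpo, which the gate asks for, was not among its top 10 genes by fold, while Hlf, Myct1 and Meis1 were, as in the HSC-like gate, so it is called by its rule and not by a cell type. The megakaryocyte gate held 1014 cells, the erythroid progenitor gate 5778 and the granulocyte progenitor gate 11375. Cells that met more than 1 gate (13586) were left out, and 74.9% of the HSC-like cells sat at the minimum of 3 markers. A mouse entered a gate with at least 10 cells, which left 3 WT vehicle and 3 Tet2-KO vehicle mice in the HSC-like gate.

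Hmga2 lies at chr10:120361275-120476469 on the minus strand (GRCm38, GENCODE M21), Hmga1 at chr17:27556497-27563674 on the plus strand, Igf2bp2 at chr16:22059009-22163299 and Igf2bp3 at chr6:49085223-49214957, both on the minus strand. No other measured gene overlaps any of them on the same strand.

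The let-7 family is shown because the members are textbook targets of its shared seed (bases 2 to 8, in capitals). These are the RefSeq mature sequences on GRCm38.p6.
mmu-let-7a-5p: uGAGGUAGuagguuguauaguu
mmu-let-7b-5p: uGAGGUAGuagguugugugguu
mmu-let-7g-5p: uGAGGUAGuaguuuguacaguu
mmu-let-7i-5p: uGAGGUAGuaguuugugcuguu
mmu-miR-98-5p: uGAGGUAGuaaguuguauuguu

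The 5 miRNAs have 1 seed in common and differ downstream of it. Its complement, CTACCTC, was searched on the sense strand of the 3′ UTR of the longest coding transcript of each gene. It occurred in 8.9% of 20869 such UTRs. Hmga2 held 4 matches in 3014 bases, while Hmga1, Igf2bp2 and Igf2bp3 held 1 each. The Hmga2 sites are printed with 13 bases before the match and 1 after it, and the match is in capitals.
Hmga2 site 1, chr10:120364224-120364244, minus strand: cgacattcaatttCTACCTCa
Hmga2 site 2, chr10:120362987-120363007, minus strand: ccactcctcaataCTACCTCt
Hmga2 site 3, chr10:120362549-120362569, minus strand: gatttgcaaggaaCTACCTCc
Hmga2 site 4, chr10:120361691-120361711, minus strand: tcaaaacacactaCTACCTCt

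Only the first of the 4 Hmga2 sites is followed by an A. Such matches describe the letters of the UTR. No small RNA was measured here, so whether let-7 acts on these transcripts is outside these data.

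Hmga2 was highest in immature cells. Over all mice its mean level was 39.1 CPM in the HSC-like gate (SD 34.7, n = 14), 34.7 CPM in the Flt3+ Cd34+ progenitor gate (SD 20.4, n = 16), 27.7 CPM in the Mpo+ Cd34+ gate (SD 23.3, n = 16) and 19.6 CPM in the Gata1+ Gata2+ progenitor gate (SD 18.7, n = 12). These 4 neighbours in the order differed by less than the spread between mice. The next gates in the order were lymphoid cells at 7.82 CPM (SD 9.22, n = 16), basophils and mast cells at 6.51 CPM (SD 5.71, n = 16) and NK/T cells at 6.07 CPM (SD 8.73, n = 15). The gap between the Gata1+ Gata2+ and lymphoid gates was also smaller than the SD of the Gata1+ Gata2+ gate. Hmga2 stood at 1.64 CPM in granulocyte progenitors, 1.00 CPM in erythroid progenitors and 0.480 CPM in megakaryocytes (SD 1.29, 0.985 and 0.957, n = 16 each).

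By cells, 12.2% of the Flt3+ Cd34+ progenitors and 9.89% of the HSC-like cells held an Hmga2 UMI, against 0.187% of neutrophils and 2.10% of lymphoid cells. Neutrophils are given as a gauge of free RNA. The lymphoid gate, whose markers include Dntt, may hold Hmga2 of its own. After each cell was thinned to 2000 UMIs the shares were 5.72%, 7.65%, 0.128% and 1.92%. The order of the HSC-like and Flt3+ Cd34+ gates by share depended on depth.

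**Figure D1:**
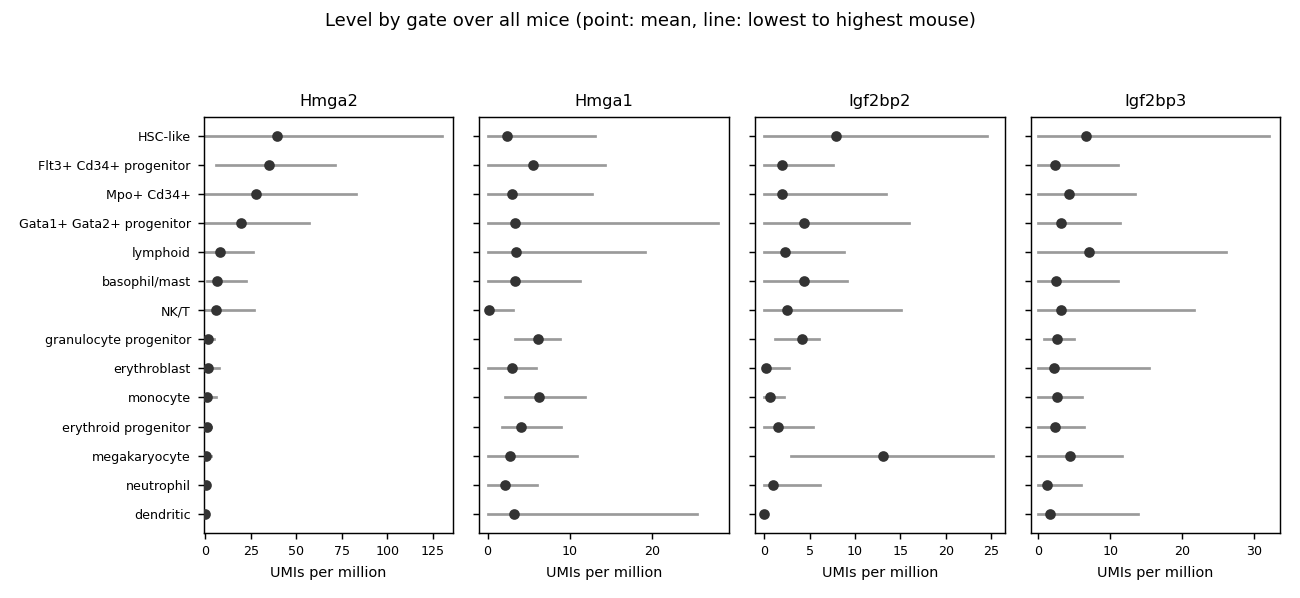
Level of each gene in CPM (x axis, linear, own scale per panel) in 14 gates (y axis, ordered by Hmga2). Points are means over all mice with at least 10 cells, and lines run from the lowest to the highest mouse; gates with fewer than 8 mice are not drawn. Hmga2 stands above 19 CPM in the 4 immature gates at the top, and Igf2bp2 is highest in megakaryocytes.

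In Flt3+ Cd34+ progenitors, Hmga2 stood at 9.97, 71.1, 25.5 and 32.2 CPM in the WT vehicle mice 1 to 4. The value of 71.1 CPM came from 5 UMIs in 16 cells. In Tet2-KO vehicle mice it stood at 55.1, 60.7, 55.3 and 56.7 CPM. The 4 Tet2-KO mice lay close together, above 3 of the 4 WT mice.

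With IL-1β, WT mice had 10.3, 5.99, 9.35 and 30.4 CPM of Hmga2 in this gate. Tet2-KO mice with IL-1β had 25.5, 40.8, 33.1 and 33.0 CPM. In these mice too 3 of the 4 WT values lay below every Tet2-KO value. The fitted difference, Tet2-KO over WT, was 2.14-fold with vehicle (log2 fold change 1.10, SE 0.29) and 3.05-fold with IL-1β (1.61, SE 0.39). Where cells that also met another gate were kept, the log2 values were 0.68 (SE 0.23) and 1.88 (SE 0.29). Every Tet2-KO mouse lay above every WT mouse for 1.04% of the 7196 genes tested in this gate with vehicle and for 2.06% with IL-1β, and Hmga2 was not among them in either.

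The mean of Hmga2 in these progenitors was lower with IL-1β in both genotypes, but neither difference passed the test. In Tet2-KO mice the groups did not overlap, with 25.5 to 40.8 CPM after IL-1β and 55.1 to 60.7 CPM after vehicle. The share of all genes without overlap between treatments was not counted, here or in the IL-1β comparisons below. The log2 fold change was −0.75 (SE 0.26) in Tet2-KO mice, with an adjusted p of 0.0621 in edgeR, and −1.26 (SE 0.42) in WT mice, with an adjusted p of 0.0801. Leaving out WT vehicle mouse 1 brought both past the threshold (edgeR adjusted p = 0.0428 in Tet2-KO and 0.0276 in WT mice), as did leaving out WT IL-1β mouse 4 (0.0459 and 0.0396), and the Tet2-KO value passed without WT vehicle mouse 2 (0.0470). Among all genes of this gate 6.03% were called lower in Tet2-KO and 2.68% in WT mice.

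Keeping cells that also met another gate, an alternative chosen after the data were seen, moved both values past the threshold. This gate then held 3935 cells, against 1593 in the main setting. The log2 fold change was then −0.85 (SE 0.21, edgeR adjusted p = 0.00704) in Tet2-KO and −2.04 (SE 0.31, edgeR adjusted p = 0.000202) in WT mice. Tested as an interaction, the 2 responses then differed by 1.19 (SE 0.38) on the log2 scale, with an edgeR p of 0.00483 before adjustment and 0.983 after it. The mitochondrial share of UMIs moved with the treatment. Its median per mouse in these progenitors was 3.65 to 4.63% in WT vehicle and 5.04 to 5.46% in WT IL-1β mice, and 3.48 to 4.37% and 4.95 to 5.13% in the Tet2-KO groups.

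The summed lymphoid markers in the same gate were 390 to 516 CPM in WT vehicle and 89.8 to 319 CPM in WT IL-1β mice, with 135 to 362 and 108 to 293 CPM in Tet2-KO mice. Of the 7 markers 6 were seen, mostly as Dntt, and Ebf1 was at 0. Basophil and mast cell markers went the other way, from 42.7 to 104 CPM up to 114 to 175 CPM in WT and from 40.5 to 112 CPM up to 142 to 259 CPM in Tet2-KO mice, with all 6 seen. The part of these shifts in the Hmga2 values was not tested.

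**Figure D2:**
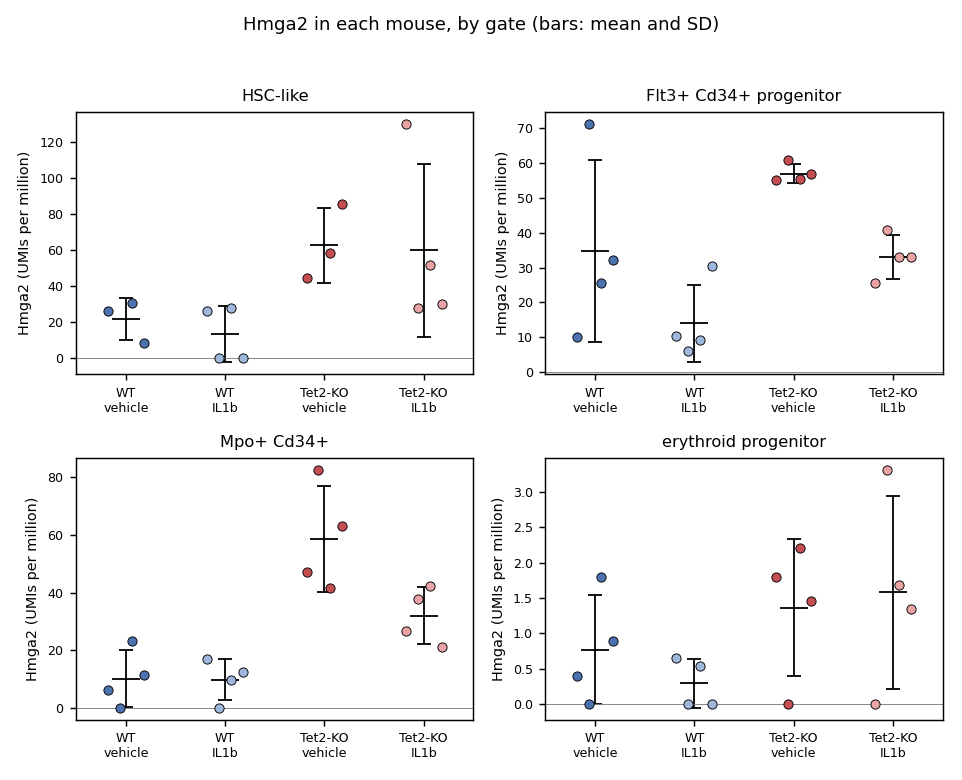
Hmga2 in CPM (y axis, linear, own scale per panel) in each mouse of the 4 groups (x axis) for 4 gates. Points are mice with at least 10 cells, and bars give the mean and 1 SD. In the Mpo+ Cd34+ gate all Tet2-KO mice lie above all WT mice of the same treatment, and in erythroid progenitors no mouse exceeds 3.31 CPM.

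In the HSC-like gate, Hmga2 stood at 26.2, 30.7 and 8.53 CPM in the 3 WT vehicle mice used and at 44.6, 58.1 and 85.3 CPM in the 3 Tet2-KO vehicle mice used. These groups did not overlap, as held for 4.71% of the 4010 genes tested. The WT vehicle mouse left out for having 7 cells had 2 Hmga2 UMIs, or 114 CPM, and with it they would overlap. The Tet2-KO vehicle mouse left out for having 9 cells had 1 UMI, or 26.6 CPM, which lies within the WT range. With IL-1β, WT mice had 26.3, 0, 27.9 and 0 CPM and Tet2-KO mice 130, 27.8, 51.9 and 30.1 CPM. The 2 WT zeros came from 12 and 10 cells with 45892 and 40740 UMIs, where 1 UMI would have come close to the other WT values. These groups overlapped, since the lowest Tet2-KO mouse lay just below the highest WT mouse. For 1.42% of the genes tested every Tet2-KO mouse lay above every WT mouse.

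The fitted difference, Tet2-KO over WT, was 2.80-fold with vehicle (log2 1.49, SE 0.63) and 2.14-fold with IL-1β (log2 1.10, SE 0.62). Leaving out single mice moved these log2 values between 1.01 and 2.14 and between 0.93 and 1.43, and with overlapping gates they were 0.98 (SE 0.70) and 1.78 (SE 0.68). Neither response to IL-1β passed the edgeR test in this gate, with log2 fold changes of −0.08 (SE 0.77, adjusted p = 0.983) in WT and −0.47 (SE 0.51, adjusted p = 0.684) in Tet2-KO mice. Called lower were 2.67% and 2.57% of all genes tested. No WT mouse used reached the level that the filter on low counts asks for in this gate. Hmga2 was tested here through its Tet2-KO mice, and the shares for this gate are of genes that passed that filter. The WT value moved to −0.78 (SE 0.81, edgeR adjusted p = 0.832) where gates could overlap, and to −1.24 (SE 0.37, edgeR adjusted p = 0.0561) where the gate also asked for only 2 HSC markers. Both settings were chosen after the data were seen, and they held 1328 and 4855 cells against 728 in the main gate.

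The summed level of 5 cell cycle genes (Mki67, Top2a, Ccnb1, Cdk1 and Birc5) differed between the same HSC-like groups. It was 1114 to 1610 CPM in WT vehicle and 290 to 721 CPM in Tet2-KO vehicle mice, and 1629 to 2234 and 1084 to 1718 CPM with IL-1β. All 5 genes were seen, and they were chosen after their values were known. Its part in the Hmga2 values was not tested.

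In the Mpo+ Cd34+ gate the genotypes were apart with both treatments. Hmga2 stood at 6.11, 0, 23.3 and 11.4 CPM in WT vehicle mice and at 47.3, 82.5, 41.7 and 63.2 CPM in Tet2-KO vehicle mice. With IL-1β the values were 17.1, 0, 9.54 and 12.5 CPM in WT and 26.8, 37.9, 42.2 and 21.03 CPM in Tet2-KO mice. The WT zeros came from 16 cells with vehicle and 17 cells with IL-1β, where 1 UMI would have exceeded 12 CPM. Neither pair of groups overlapped, as was so for 1.78% and 2.35% of the 5999 genes tested.

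The fitted ratio of Tet2-KO to WT in this gate was 4.08 with vehicle (log2 2.03, SE 0.35) and 2.71 with IL-1β (log2 1.44, SE 0.51). The response of Hmga2 to IL-1β in Tet2-KO mice had a log2 fold change of −0.80 (SE 0.32), which did not pass in edgeR (adjusted p = 0.0869). The value in WT mice was −0.21 (SE 0.57, edgeR adjusted p = 0.884). Too few WT mice reached the level that the filter on low counts asks for in this gate. Hmga2 was thus tested here through its Tet2-KO mice.

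Summed per mouse, the HSC-like, Flt3+ Cd34+ and Mpo+ Cd34+ gates gave 24.7 ± 13.9 CPM of Hmga2 in WT vehicle, 12.7 ± 6.90 in WT IL-1β, 56.8 ± 8.44 in Tet2-KO vehicle and 39.5 ± 9.20 CPM in Tet2-KO IL-1β mice (SD, n = 4 each). This sum was added after the data were seen. Here Hmga2 fell with IL-1β in Tet2-KO mice, with a log2 fold change of −0.70 (SE 0.22, edgeR adjusted p = 0.0208), as did 12.3% of all genes tested in this sum, against 5.66% in WT mice. The make-up of the sum moved as well. From vehicle to IL-1β the Tet2-KO mice gave 176 and 236 HSC-like cells, 486 and 403 Flt3+ Cd34+ cells and 577 and 231 Mpo+ Cd34+ cells, and the part of this in the Hmga2 value was not tested. The estimate in WT mice was alike in size at −0.74 (SE 0.33), but was not past the threshold in edgeR (adjusted p = 0.158). The difference between those 2 responses, tested as an interaction, was 0.04 on the log2 scale (SE 0.37, edgeR adjusted p = 1).

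Over all cells given to a mouse, Hmga2 was read at 2.30 to 4.37 CPM in WT vehicle, 0.596 to 2.57 in WT IL-1β, 5.08 to 10.0 in Tet2-KO vehicle and 3.68 to 7.26 CPM in Tet2-KO IL-1β mice. The genotypes did not overlap with either treatment, as held for 0.768% and 1.64% of the 13146 genes tested. IL-1β lowered it in WT mice (log2 fold change −1.04, SE 0.34, edgeR adjusted p = 0.0349). For Tet2-KO mice the value was −0.67 (SE 0.30, edgeR adjusted p = 0.102). In such a sum, fewer cells of a type and less RNA per cell cannot be told apart. The share of cells in the 3 immature gates was 5.46 to 9.87% in WT vehicle mice and 2.54 to 4.90% in WT IL-1β mice, with 4.37 to 9.43% and 3.79 to 8.54% in Tet2-KO mice.

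Outside the immature cells Hmga2 was sparse. In erythroid progenitors it stood at 0.773 ± 0.772 CPM in WT vehicle and 1.37 ± 0.962 CPM in Tet2-KO vehicle mice (SD, n = 4 each), from 12 and 32 UMIs, and failed the filter on low counts. Exact permutation tests of IL-1β gave adjusted p-values of 0.738 in WT and 0.984 in Tet2-KO mice (n = 4 against 4, 24 tests in the family). In megakaryocytes 4 UMIs were seen in 1014 cells. In granulocyte progenitors the mean was 0.810 CPM in WT vehicle, 0.690 in WT IL-1β, 2.93 in Tet2-KO vehicle and 2.11 CPM in Tet2-KO IL-1β mice (SD 0.633, 0.230, 1.72 and 0.541, n = 4 each). The log2 fold changes with IL-1β there were −0.59 (SE 0.61, edgeR adjusted p = 0.512) in WT and −0.65 (SE 0.34, edgeR adjusted p = 0.137) in Tet2-KO mice. Without single mice they ran from −0.77 to −0.18 and from −0.89 to −0.35, and the Tet2-KO value was called without vehicle mouse 2 (edgeR adjusted p = 0.0379). Hmga2 passed the filter on low counts in 14 of the 16 such fits. Too few WT mice reached the level that this filter asks for in granulocyte progenitors. Hmga2 was thus tested there through its Tet2-KO mice.

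The 5 genes whose levels followed Hmga2 most closely over 58 combinations of gate and group were Gm19590 (Pearson r 0.83), Gm26735 (0.83), Pdgfrb (0.80), Sox4 (0.78) and Paip2 (0.78), of 13520 genes compared. Sox4 encodes a transcription factor of immature lymphoid and stem cells, and Pdgfrb a growth factor receptor. The other members did not share this pattern, with r of −0.03 for Hmga1, 0.28 for Igf2bp2 and 0.29 for Igf2bp3. The points share mice and libraries, so these are descriptions. For Hmga1, whose own counts are sparse, the closest were Ppil1 (0.57), 2810454H06Rik (0.57), Yars2 (0.55), Atl1 (0.55) and Cbr4 (0.55).

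Hmga1, in contrast to Hmga2, was read across most gates, with means between 0.203 CPM in NK/T cells and 6.26 CPM in monocytes among gates of 10 or more mice. The means of monocytes, granulocyte progenitors and Flt3+ Cd34+ progenitors (6.26, 6.13 and 5.54 CPM, SD 2.79, 1.41 and 4.44, n = 16 each) differed by less than the spread between mice. Hmga1 passed the filter in the granulocyte, erythroid and monocyte gates, and in none of the immature gates.

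In erythroid progenitors, Hmga1 stood at 4.57, 5.39, 4.48 and 5.56 CPM in WT vehicle mice and at 3.25, 2.37, 2.71 and 1.70 CPM in WT IL-1β mice, and these did not overlap. In Tet2-KO mice it stood at 3.86, 8.89, 4.57 and 3.92 CPM with vehicle and at 5.43, 2.89, 2.80 and 3.18 CPM with IL-1β. The values of 8.89 and 5.43 CPM rested on 46 and 27 cells. By uniquely placed reads Hmga1 was called lower with IL-1β in WT mice, with a log2 fold change of −0.96 (SE 0.28, edgeR adjusted p = 0.0213), and the size of this difference and the lack of overlap are uncertain for that reason. This call was lost without WT vehicle mouse 1 (edgeR adjusted p = 0.0592) or 4 (0.0745) or WT IL-1β mouse 3 (0.0914), and with DESeq2 (adjusted p = 0.109). With overlapping gates it was −0.36 (SE 0.26, edgeR adjusted p = 0.421). The value was −0.66 (SE 0.27, edgeR adjusted p = 0.0991) in Tet2-KO mice.

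In granulocyte progenitors Hmga1 was called lower in both genotypes, by uniquely placed reads. It stood at 7.49, 5.78, 8.84 and 7.64 CPM in WT vehicle mice and at 4.92, 6.04, 5.10 and 6.18 CPM in WT IL-1β mice. In Tet2-KO mice it stood at 6.37, 7.21, 5.95 and 7.48 CPM with vehicle and at 5.03, 3.28, 4.37 and 6.38 CPM with IL-1β. The groups overlapped in both genotypes. The log2 fold change was −0.72 (SE 0.21, edgeR adjusted p = 0.0160) in WT and −0.58 (SE 0.19, edgeR adjusted p = 0.0208) in Tet2-KO mice. The WT call was lost without vehicle mouse 3 (edgeR adjusted p = 0.0728) or IL-1β mouse 3 (0.0507), and the Tet2-KO call without vehicle mouse 4 (0.0616) or IL-1β mouse 2 (0.0542) or 3 (0.0536).

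All Hmga1 calls stand for uniquely placed reads and do not show that Hmga1 RNA as a whole fell. Between genotypes Hmga1 differed little, with log2 values of −0.14 (SE 0.25) with vehicle and 0.16 (SE 0.31) with IL-1β in erythroid progenitors.

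Igf2bp3 fell with IL-1β in both gates where it was tested and in both genotypes. In erythroid progenitors it stood at 4.43, 2.69, 2.69 and 3.05 CPM in WT vehicle mice and at 2.17, 0.592, 0.724 and 0 CPM in WT IL-1β mice, without overlap. In Tet2-KO mice it stood at 2.32, 3.55, 6.34 and 3.77 CPM with vehicle and at 2.71, 0.413, 1.68 and 1.68 CPM with IL-1β, where 1 mouse of 27 cells overlapped. The WT zero came from 589100 UMIs and the value of 2.71 CPM from 368521 UMIs, so both rest on very few Igf2bp3 counts. The log2 fold change was −1.67 (SE 0.51, edgeR adjusted p = 0.0261) in WT and −1.84 (SE 0.46, edgeR adjusted p = 0.0103) in Tet2-KO mice. The WT call was lost without vehicle mouse 1 (edgeR adjusted p = 0.157) or IL-1β mouse 2 (0.0585) or 3 (0.153), and the Tet2-KO call without vehicle mouse 3 (0.0937) or IL-1β mouse 2 (0.0644). Without single mice the WT value ran from −2.57 to −1.30.

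In granulocyte progenitors, Igf2bp3 stood at 2.93, 3.47, 2.95 and 4.33 CPM in WT vehicle mice and at 1.19, 0.929, 0.987 and 1.69 CPM in WT IL-1β mice. In Tet2-KO mice it stood at 3.66, 1.60, 4.87 and 4.99 CPM with vehicle and at 1.94, 0.864, 2.98 and 2.18 CPM with IL-1β. The WT groups did not overlap and the Tet2-KO groups did. The log2 fold change was −1.75 (SE 0.42, edgeR adjusted p = 0.00437) in WT, a 3.35-fold lower level, and −0.98 (SE 0.32, edgeR adjusted p = 0.0180) in Tet2-KO mice. The WT call held without any single mouse, and the Tet2-KO call was lost without vehicle mouse 3 (edgeR adjusted p = 0.0877) or 4 (0.0636). The difference between genotypes in this response, 0.77 on the log2 scale (SE 0.52), did not pass the interaction test in edgeR (adjusted p = 0.927).

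The mitochondrial share of UMIs moved with the treatment in both gates. In erythroid progenitors its median per mouse was 4.29 to 4.47% in WT vehicle and 5.35 to 5.81% in WT IL-1β mice, with 3.72 to 5.02% and 5.12 to 5.81% in Tet2-KO mice. In granulocyte progenitors it was 3.38 to 4.46% and 5.02 to 5.71% in WT mice, with 3.22 to 4.18% and 4.61 to 5.82% in Tet2-KO mice. Its part in the Igf2bp3 and Hmga1 values was not tested.

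The 4 members and 5 gates gave 20 pairs, and 8 of them had enough counts to be tested. Of these 8, WT mice had 4 that were called lower with IL-1β, Tet2-KO mice had 3, and no rise was called. The Hmga1 calls among them stand for uniquely placed reads and are uncertain. Hmga2 in the HSC-like and granulocyte gates was among the 8 through its Tet2-KO mice. An alternative set of gates and the leaving out of 1 mouse each called Igf2bp2 higher in Tet2-KO granulocyte progenitors, with the values given for that gene. With the 2 pools of a group as the replicates, 0 of the Tet2-KO calls were made. The calls fell in the erythroid gate, where 10.1% of all genes were called lower in WT and 9.95% in Tet2-KO mice, and the granulocyte gate, where 15.3% and 19.6% were. In megakaryocytes, where no member passed the filter, 5.13% and 7.76% were called lower. In edgeR 0 of the 8 pairs had an interaction at an unadjusted p under 0.05. The test called 0 interactions among all genes in each of the 5 gates, where 175 to 550 genes had an unadjusted p under 0.05 in edgeR.

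In the HSC-like and Flt3+ Cd34+ gates Igf2bp3 was seen in few cells. Over all mice it averaged 6.66 CPM (SD 10.3, n = 14) and 2.35 CPM (SD 3.18, n = 16) there. In erythroid and granulocyte progenitors Igf2bp3 averaged 2.43 and 2.60 CPM (SD 1.64 and 1.39, n = 16 each), within the spread of the HSC-like values. With overlapping gates and 2 HSC markers, it had enough counts in the HSC-like gate. It was called lower there with IL-1β in Tet2-KO mice (log2 fold change −1.92, SE 0.49, edgeR adjusted p = 0.0287), with −1.07 (SE 0.52, edgeR adjusted p = 0.236) in WT mice. That setting, chosen after the data were seen, held 4855 cells against 728. Its marker Mllt3 had 5048 UMIs in the erythroid progenitor gate, so erythroid cells may be among them. The share of all genes called lower in that setting is not given here. In Flt3+ Cd34+ progenitors 12 UMIs came from Tet2-KO vehicle mice and 0 from Tet2-KO IL-1β mice, where 3 UMIs would have been 1.51 CPM. The exact permutation test gave an adjusted p of 0.738 (n = 4 against 4). In the 3 immature gates summed, Igf2bp3 was read at 4.16 to 7.23 CPM in WT vehicle and 0 to 1.13 CPM in WT IL-1β mice, which do not overlap. This sum was added after the data were seen, and the share of all genes without such overlap was not counted. Igf2bp3 did not pass the filter there.

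Over all cells given to a mouse, Igf2bp3 fell from 3.48 ± 0.423 to 1.36 ± 0.242 CPM in WT mice and from 4.00 ± 1.40 to 1.95 ± 0.771 CPM in Tet2-KO mice (SD, n = 4 each). The log2 fold changes were −1.44 (SE 0.31, edgeR adjusted p = 0.00451) and −1.17 (SE 0.30, edgeR adjusted p = 0.00800). Hmga1, by uniquely placed reads and with the same uncertainty, was called lower too, with log2 fold changes of −0.68 (SE 0.19, edgeR adjusted p = 0.0143) and −0.52 (SE 0.18, edgeR adjusted p = 0.0378). Of all genes in this sum 12.7% were called lower in WT and 16.2% in Tet2-KO mice, so 3 of 4 and 2 of 4 members stand beside a high background.

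**Figure D3:**
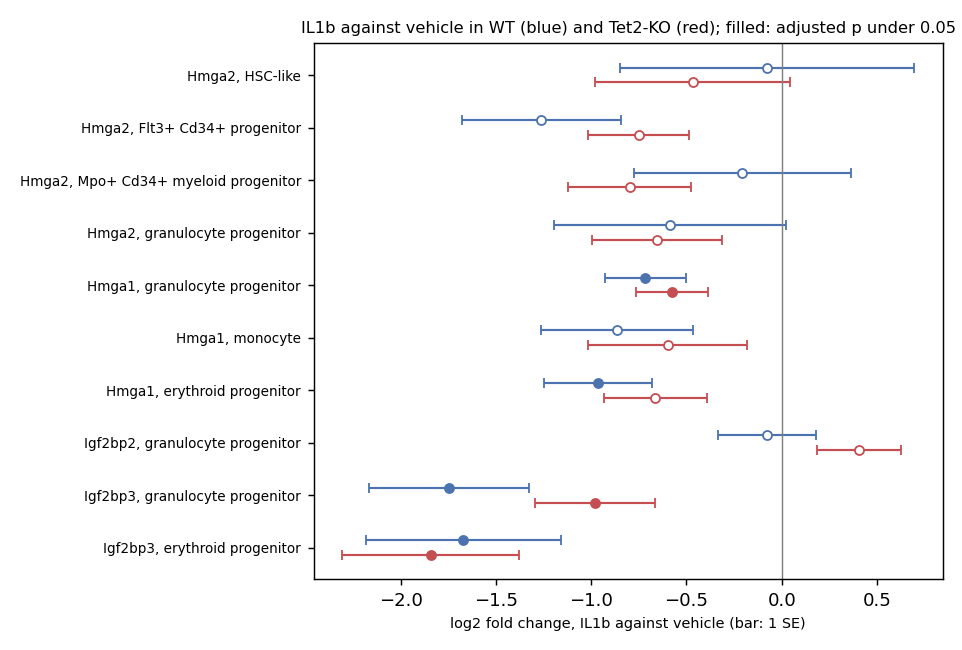
Log2 fold change of IL-1β against vehicle (x axis; bars, 1 SE) for each member and gate that passed the filter on low counts (y axis), in WT mice (blue) and Tet2-KO mice (red). Filled points have an adjusted p under 0.05 in edgeR, and all 7 filled points lie below 0.

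**Figure D4:**
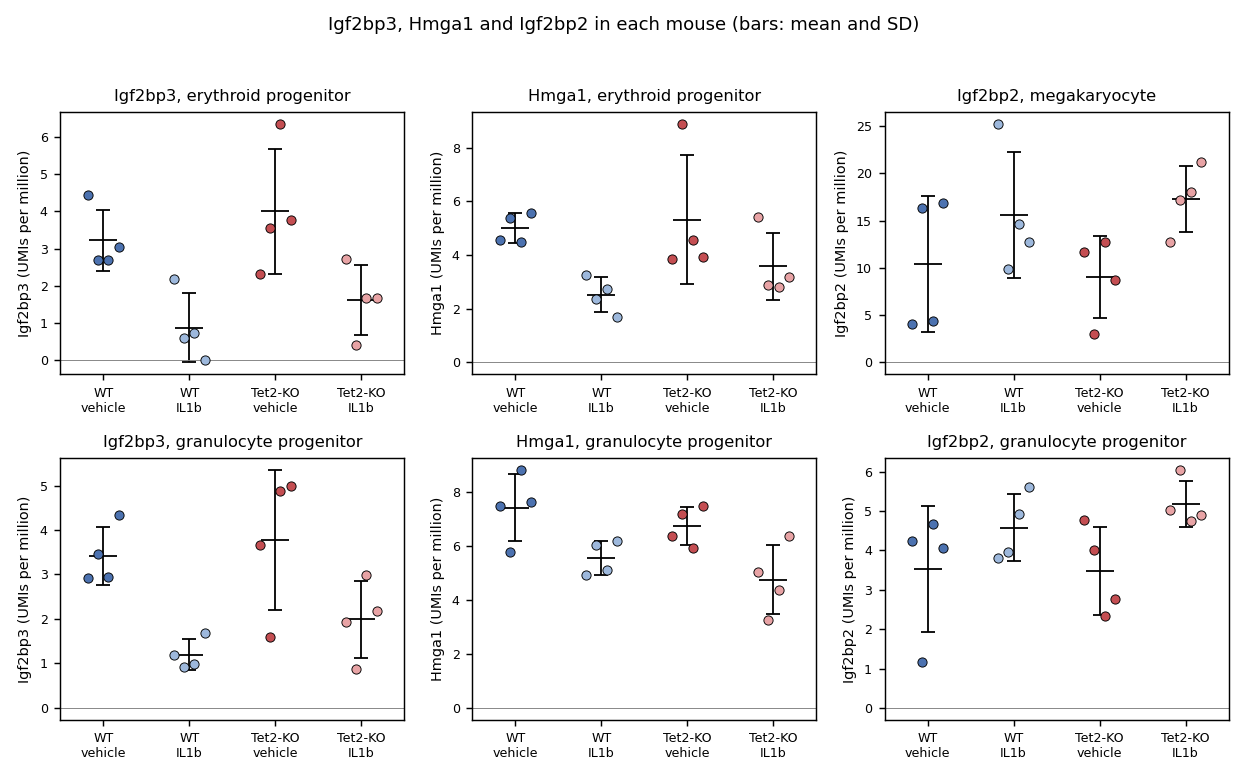
Igf2bp3, Hmga1 and Igf2bp2 in CPM (y axes, linear, own scale per panel) in each mouse of the 4 groups (x axes), in 2 gates per gene. Points are mice, and bars give the mean and 1 SD. Igf2bp3 in WT mice does not overlap between treatments in either gate, and Igf2bp2 in megakaryocytes reaches 25.2 CPM. The share of all genes without such overlap was not counted.

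Igf2bp2 had another pattern. It was highest in megakaryocytes, at 13.1 CPM (SD 6.20, n = 16), followed by the HSC-like gate at 7.87 CPM (SD 8.25, n = 14), a gap smaller than the spread between mice. A UMI of Igf2bp2 was seen in 9.27% of megakaryocytes (3.31% after thinning), against 0.312% of neutrophils and 0.667% of lymphoid cells (0.257% and 0.639% after thinning).

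In megakaryocytes Igf2bp2 stood at 4.00, 16.3, 4.31 and 16.9 CPM in WT vehicle and at 25.2, 9.91, 14.6 and 12.7 CPM in WT IL-1β mice. In Tet2-KO mice it stood at 11.7, 2.97, 12.8 and 8.69 CPM with vehicle and at 12.8, 17.2, 18.0 and 21.3 CPM with IL-1β. The WT groups overlapped, and the highest Tet2-KO vehicle mouse lay just below the lowest Tet2-KO IL-1β mouse. It failed the filter on low counts. Exact permutation tests gave p = 0.0286 in Tet2-KO mice, the smallest that 4 against 4 allows, with an adjusted p of 0.686 over 24 tests, and p = 0.314 in WT mice. With overlapping gates it had enough counts for edgeR, and the log2 fold changes were 0.18 (SE 0.35, adjusted p = 0.804) in Tet2-KO and 0.78 (SE 0.40, adjusted p = 0.282) in WT mice, so neither was called.

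In granulocyte progenitors the log2 fold changes of Igf2bp2 were −0.08 (SE 0.26, edgeR adjusted p = 0.867) in WT and 0.41 (SE 0.22, edgeR adjusted p = 0.151) in Tet2-KO mice. The Tet2-KO value was called with overlapping gates (0.58, SE 0.22, edgeR adjusted p = 0.0410) and without vehicle mouse 1 (0.64, edgeR adjusted p = 0.0448).

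The partners of the LIN28/let-7 axis were read next, from a list of 17 genes. Lin28b, the repressor of let-7 in fetal blood, gave 8 UMIs in all cells of the 16 mice. Igf2bp1, the third gene of its family, gave 0 UMIs, and 3 UMIs would have been 0.0266 to 0.0384 CPM by group. Dicer1, which cuts miRNA precursors, stood between 35.7 and 46.0 CPM in the 16 mice over all cells.

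Lin28a, the other LIN28 gene, was read in granulocyte progenitors at 3.00 CPM in WT vehicle and 5.52 CPM in WT IL-1β mice (SD 0.528 and 1.31, n = 4 each), and gave no UMI in the HSC-like gate. Over all cells it stood at 1.32 ± 0.711 CPM in WT vehicle, 3.42 ± 1.04 in WT IL-1β, 1.25 ± 0.930 in Tet2-KO vehicle and 3.62 ± 0.848 CPM in Tet2-KO IL-1β mice (SD, n = 4 each). It rose with IL-1β in that sum, by 1.46 (SE 0.50, edgeR adjusted p = 0.0425) and 1.53 (SE 0.47, edgeR adjusted p = 0.0222) on the log2 scale, where 13.4% and 15.8% of all genes rose. In granulocyte progenitors of Tet2-KO mice it rose by 1.10 (SE 0.26, edgeR adjusted p = 0.00280). With IL-1β these progenitors went from 1561 of 11949 cells to 3682 of 15604 in WT mice. In Tet2-KO mice they went from 2423 of 15545 to 3709 of 14798. The part of this in the Lin28a values over all cells was not tested.

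Zcchc6 and Zcchc11, which encode the terminal uridylyl transferases that tail let-7 precursors, rose with IL-1β in granulocyte progenitors of Tet2-KO mice (log2 fold changes 0.45 and 0.44, SE 0.09 and 0.11, edgeR adjusted p = 0.00052 and 0.00358). In that gate 5 of the 14 genes tested rose and 2 fell in Tet2-KO mice, with 1 and 1 in WT mice. Of all genes in that gate 19.1% rose and 19.6% fell in Tet2-KO mice, and 12.2% and 15.3% in WT mice. The list's median was 0.13 and 0.06 on the log2 scale. None of the list was called with IL-1β in the HSC-like or Flt3+ Cd34+ gates, where 8 and 12 genes were tested.

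Of 16 textbook let-7 targets, 13 were tested in Flt3+ Cd34+ progenitors. IL-1β raised 3 and lowered 2 of them in Tet2-KO mice, and none passed in WT mice. Of all genes in that gate 4.71% rose and 6.03% fell in Tet2-KO mice, and 2.02% and 2.68% in WT mice. Among those called were Igf1r, a growth factor receptor (log2 fold change 0.88, SE 0.21, edgeR adjusted p = 0.00619), and Ccnd2, a cyclin (−0.72, SE 0.23, edgeR adjusted p = 0.0402). Hras, a small GTPase, fell in granulocyte progenitors of both genotypes (−1.02, SE 0.15 and −1.09, SE 0.14, edgeR adjusted p = 0.000161 and 1.54e-05). In that gate 15.3% of all genes fell in WT and 19.6% in Tet2-KO mice, and the other listed targets there are not given here. Genotype called 1 of them, Ccnd1 in erythroid progenitors with vehicle, lower in Tet2-KO mice (−2.61, SE 0.42, edgeR adjusted p = 0.0104), as were 0.0303% of all genes in that comparison. The lists were chosen with earlier results of these data known, so their calls by genotype are not independent evidence.

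Other HMG proteins were called in both directions with IL-1β. In granulocyte progenitors 5 of 9 fell in WT mice, and 4 fell and 1 rose in Tet2-KO mice, at list medians of −0.40 and −0.23 on the log2 scale, where 15.3% and 19.6% of all genes fell. In erythroid progenitors 3 of 8 fell in WT and 4 of 8 in Tet2-KO mice and none rose, where 10.1% and 9.95% of all genes fell. Hmgb3, an HMG-box protein of blood progenitors, fell there in both, with log2 fold changes of −0.62 (SE 0.12, edgeR adjusted p = 0.00174) in WT and −0.45 (SE 0.12, edgeR adjusted p = 0.0167) in Tet2-KO mice. Hmgb1 and Hmgn1, both abundant chromatin proteins, fell in Flt3+ Cd34+ progenitors of Tet2-KO mice (−0.49 and −0.75, SE 0.12 and 0.15, edgeR adjusted p = 0.00747 and 0.00143). Of all genes 6.03% were called lower in that comparison, and the other HMG genes of that gate are not given here. In the HSC-like gate Hmgb2, which tracks dividing cells, was lower in Tet2-KO than WT vehicle mice (−1.03, SE 0.18, edgeR adjusted p = 0.00979), a comparison in which 0.324% of all genes were called lower.

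Genes placed downstream of HMGA2 or the IGF2BP proteins came from a list of 12, and 8 were tested in Flt3+ Cd34+ progenitors. None was called by genotype there, in comparisons that called in edgeR 0 of all genes with vehicle (270 at an unadjusted p under 0.05) and 3 higher and 4 lower with IL-1β. In the HSC-like gate the mitotic cyclin gene Ccnb2 was lower in Tet2-KO than WT vehicle mice (log2 fold change −2.42, SE 0.49, edgeR adjusted p = 0.0159). Junb, an immediate early transcription factor gene, rose with IL-1β in the HSC-like, Flt3+ Cd34+, megakaryocyte and erythroid gates of both genotypes, with log2 fold changes from 1.30 to 3.22. Of all genes 1.6% and 1.82% rose in the HSC-like gate (WT, then Tet2-KO), 2.19% and 5.18% in megakaryocytes and 7.9% and 5.84% in erythroid progenitors. In Flt3+ Cd34+ progenitors it rose by 2.32 (SE 0.39, edgeR adjusted p = 0.000326) in WT and 1.78 (SE 0.34, edgeR adjusted p = 0.0012) in Tet2-KO mice.

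Fetal and imprinted growth genes were almost unread. Of 14, no more than 3 passed the filter in any of the 5 gates and 6 did in the sum over all cells, and none was called in any comparison.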

How the data were processed

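Lineage-depleted marrow of 16 mice was profiled with 3′ single-cell RNA-seq and hashtags. The authors deposited raw UMI counts per gene and barcode for 8 libraries, made with Cell Ranger 3.1.0 on mm10, and hashtag counts. The deposited counts were filtered to cells with at least 750 genes and at most 10% mitochondrial UMIs. Hashtags were called with Seurat 5.3.0 (HTODemux), which dropped doublets carrying both hashtags, and no other doublet caller was run. Cells were gated on marker UMIs, and UMIs were summed per mouse and gate. CPM is per 1000000 UMIs of that sum. All 4 groups were fitted together in edgeR 4.0.16 (filterByExpr, TMM, quasi-likelihood test), with Benjamini-Hochberg adjustment over all genes tested in the gate and a threshold of 0.05. SEs are the absolute log2 fold change over the square root of F. A gene that failed the filter was compared on log2(CPM + 1) by a 2-sided exact permutation test.

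Named were the members in every gate, and from 5 lists those called (at most 4 per list and gate, largest change first) with Lin28b, Igf2bp1 and Dicer1. The 5 genes most like Hmga2 or Hmga1 had the highest Pearson r over group means. The members, lists, 5 cell cycle genes and gates were chosen with earlier results of these data known. In data simulated for IL-1β against vehicle in WT mice, 4-fold changes were recovered for 88% of 100 changed genes in Flt3+ Cd34+ progenitors (7196 genes), 94% in erythroid (9885) and 95% in granulocyte progenitors (10312), and 2-fold changes for 54%, 77% and 85%. Of the changed genes under 10 CPM, 2-fold changes were recovered for 10 of 29 in erythroid and 19 of 34 in granulocyte progenitors. Among genes left unchanged in these simulations, 15 were called in Flt3+ Cd34+, 10 in erythroid and 8 in granulocyte progenitors. The UMIs per mouse were 4388604 to 44152768 over all cells, and 40740 to 359968 in the HSC-like gate. Mice that shared a library were treated as separate. Intervals and floors cover counting error only. No column of per-sample values was left out (0 columns). A result that bears on how reads are assigned to Hmga1 is not reported here, and the Hmga1 counts are to be read as uncertain.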

Additional observations from a re-analysis of the deposited data

Results flagged for a closer look

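Of 30 groups of 4 mice examined for the members, 3 held a mouse far from the other 3 by Dixon's test, which flags about 1 group in 20 by chance. Hmga1 in erythroid progenitors was at 8.89 CPM in 1 Tet2-KO vehicle mouse, from 46 cells, with the nearest other mouse at 4.57 CPM. It was at 5.43 CPM in 1 Tet2-KO IL-1β mouse, from 27 cells, with the nearest at 3.18 CPM. Igf2bp2 in granulocyte progenitors was at 1.16 CPM in 1 WT vehicle mouse, from 167 cells, with the nearest at 4.07 CPM. No cause was tested.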

How the results depend on the processing

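IL-1β was called for 4 member and gate pairs in WT mice, 3 in Tet2-KO mice and 0 for the interaction. The WT count was 2 with DESeq2 and 2 without both mice of the first WT vehicle pool, and 1 to 5 when single mice were left out. The Tet2-KO count was 0 with pools as replicates, 5 where gates could overlap (1 of them a rise, of Igf2bp2) and 1 to 4 without single mice, and the interaction count was 0 throughout. Hmga2 in the HSC-like gate turned direction in WT mice with 20 cells per mouse (0.26) and in Tet2-KO mice with overlapping gates (0.026), moved to −1.24 in WT mice with overlapping gates and 2 HSC markers, and ran from −0.54 to 0.57 and from −0.68 to −0.16 without single mice. In Flt3+ Cd34+ progenitors it passed with overlapping gates (−2.04 in WT, −0.85 in Tet2-KO), and in Tet2-KO mice also with 20 cells per mouse (−0.77) and without the first WT vehicle pool (−0.78). Without single mice it ran from −1.54 to −1.09 in WT and from −0.90 to −0.71 in Tet2-KO mice, and passed in WT mice at the lowest adjusted p of 0.0276 and in Tet2-KO mice at 0.0428 in edgeR. Genotype differences near 0 changed sign with overlapping gates for Hmga1 (−0.10 with IL-1β in erythroid, 0.025 with vehicle and 0.14 with IL-1β in granulocyte progenitors), Igf2bp3 (−0.12 with IL-1β in erythroid, −0.049 with vehicle in granulocyte progenitors) and Igf2bp2 (0.051 with vehicle in granulocyte progenitors). Hmga1 did so too without cells of high UMI (0.10, vehicle, erythroid) and with pools as replicates (0.037, IL-1β, granulocyte). The response of Igf2bp2 in WT granulocyte progenitors was 0.026 with pools and 0.41 with overlapping gates. Without single mice that response ran from −0.18 to 0.024, the Igf2bp3 genotype difference in erythroid progenitors from −0.11 to 0.62 with vehicle and from −0.22 to 1.04 with IL-1β, and that of Hmga1 with IL-1β in granulocyte progenitors from −0.27 to 0.073. Counting every alternative, 756 fold changes kept their direction and their side of the threshold, 24 lost a call, 12 gained one and 23 changed sign. Another 3 were marked as moved. The causes were not tested. Overlapping gates and the pool left out were chosen after the data were seen.

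With the pool number as a replicate block the counts were 4, 3 and 0, and Hmga2 in Flt3+ Cd34+ progenitors had log2 fold changes of −1.23 in WT and −0.74 in Tet2-KO mice, so no call changed. Mouse numbers did not pair the samples, with correlations of same-numbered mice from −0.13 to 0.32, and 1 of 8 mice correlated best with its own number. Low UMI counts limit the HSC-like and Flt3+ Cd34+ gates and the megakaryocytes, where 1, 1 and 0 of the members had enough counts to be fitted.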
